A study of Mus musculus with 17 samples.

Results

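The genes described here are those that write, copy and erase DNA methylation: the 3 TET dioxygenases (Tet1, Tet2, Tet3), the 3 DNA methyltransferases (Dnmt1, Dnmt3a, Dnmt3b) and Uhrf1. They were chosen by gene name and not by their values, though with earlier results of these data known. All 7 of 7 were found among the 47069 genes of the overexpression table and the 46880 genes shared by the 3 count tables. RNA sequencing had been done on mouse fetal liver cells to ask what a changed level of the transcription factor Arid3a does in cells that make the short form of GATA1 (Gata1s), and 17 libraries were used here.

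The cells were taken at E12.5 to E13.5, in midgestation, from mice that carry Cas9 and EGFP at the Rosa26 locus. Of the 17 libraries, 14 carried a guide RNA against Gata1 (sgGata1) and are the Gata1s libraries. Their second transgene defined the group. LUC, a luciferase control (n = 3), and Arid3a (n = 3) had 48 h of doxycycline at 1 µg/mL. The control hairpin sh-ctrl (n = 3), the hairpin shArid3a (n = 2, replicates 1 and 3) and miR-125b (n = 3) had 10 days of doxycycline at the same dose. The wild-type group, WT (n = 3), carried a luciferase guide (sgLuc) and a luciferase hairpin (shLuc), with no doxycycline given in the labels. Transgene promoters, and whether the replicates were separate cultures, are not given in the sources used here, so p-values measure only the spread between these samples.

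The depth per library was 31339238 to 38678649 counts for LUC and Arid3a, 31992089 to 40859301 counts for the hairpin and microRNA groups, and 16362439 to 19212193 counts for WT. The transgene check differed between groups. Arid3a was at 65.4 ± 10.9 CPM (counts scaled to the effective size of the library) in the libraries labelled Arid3a (SD, n = 3) and 61.7 ± 2.61 CPM in LUC (SD, n = 3), so its log2 fold change was 0.08 (edgeR adjusted p = 0.737). Its RNA was lower with shArid3a (log2 fold change −1.43, edgeR adjusted p = 0.0368) and with miR-125b (−2.56, 0.000282). In WT, Arid3a was at 247 ± 29.3 CPM (SD, n = 3), a difference between count tables that was not tested. Gata1, the target of the guide, was at 303 ± 11.96 CPM in LUC, 475 ± 123 CPM in sh-ctrl and 67.9 ± 5.65 CPM in WT (SD, n = 3 each) and was not called in any comparison; a level per gene does not show an edit. Summed megakaryocyte and platelet markers reached 2889 to 5338 CPM in the 14 Gata1s libraries and 1324 to 1523 CPM in WT. Neutrophil and monocyte markers summed to 12140 to 16707 CPM in WT and to at most 166 CPM in any Gata1s library, while the hepatocyte markers did not exceed 18.1 CPM in any library.

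DNA methyltransferases add a methyl group to cytosine, mainly where it precedes guanine. DNMT3A and DNMT3B set new marks, whereas UHRF1 binds hemimethylated DNA behind the replication fork and recruits DNMT1, which copies the mark to the new strand. TET enzymes oxidise 5-methylcytosine with 2-oxoglutarate and iron, and the oxidised base is lost at replication or removed by base excision repair. TET2 and DNMT3A restrain self-renewal of blood stem cells and are often mutated in myeloid neoplasms, and miR-125b, a microRNA that slows megakaryocyte and myeloid maturation when raised, is reported to target Tet2.

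Mature miR-125b-5p is shown first because its seed (bases 2 to 8, in capitals) is the sequence that was searched for in the 3′ untranslated regions (UTRs) of the 7 genes. It is the same from both mouse loci, Mir125b-1 on chromosome 9 and Mir125b-2 on chromosome 16 (RefSeq, GRCm38.p6).
miR-125b-5p: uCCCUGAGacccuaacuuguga

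The transcript strand of the longest annotated 3′ UTR of each gene (GENCODE M21, GRCm38, the build named mm10 in the submitters' processing notes) was searched for an 8mer match (CTCAGGGA), a 7mer-m8 match (CTCAGGG) and a 7mer-A1 match (TCAGGGA), the last 2 of which lie within the 8mer. No 8mer and no 7mer-m8 was found in any of the 7 genes. The 7mer-A1 was found 2 times in Tet1, 1 time in Tet2 and 1 time in Tet3, each in the last exon, and 0 times in Dnmt1, Dnmt3a, Dnmt3b and Uhrf1. A 7mer-A1 lacks the base that matches base 8 of the microRNA, so it is not a match of the whole seed. The 4 stretches are shown 5′ to 3′ on the transcript strand (genome minus strand), with the 7 matching bases in capitals. They are the only matches found in the 3′ UTRs searched. They lie at chr10:62811108-62811135 and chr10:62806231-62806258 for Tet1, chr3:133464847-133464874 for Tet2 and chr6:83363162-83363189 for Tet3.
Tet1, upstream match: aggattcctgtcctTCAGGGAccctgat
Tet1, downstream match: gctttggtcctacgTCAGGGActgcagg
Tet2: tttgttctaaaaatTCAGGGAtatttca
Tet3: cttctattctgataTCAGGGAtgctttc

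The Tet2 match starts at base 1877 of a 3′ UTR of 3058 bases. Of 11505 tested genes with an annotated 3′ UTR, 5.52% held an 8mer, 15.7% an 8mer or 7mer-m8, and 22.8% any of the 3 matches. Longer UTRs hold more matches: among the 1788 genes whose UTR length was within 25% of that of Tet2, 40.7% held at least 1, and among the 608 genes near Tet3, 55.6% did. Dnmt3a had 0 matches in 6696 bases, where 59.1% of genes of like UTR length held at least 1. These matches describe the letters only, and pairing with the microRNA was not tested.

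The levels below are CPM scaled by the trimmed mean of M values (TMM) over all 17 libraries. Levels are compared between genes only as CPM per kilobase of gene length, since a longer gene collects more reads at the same RNA abundance. Levels across the 3 tables are a description with no test, since genotype, doxycycline, second transgene and table change together between WT and the other groups and cannot be told apart. How many of all genes separate WT from the other groups was not counted. Such a separation is therefore not read as particular to these genes. In these bulk samples, fewer cells of a type and less RNA per cell cannot be told apart either.

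**Figure D1:**
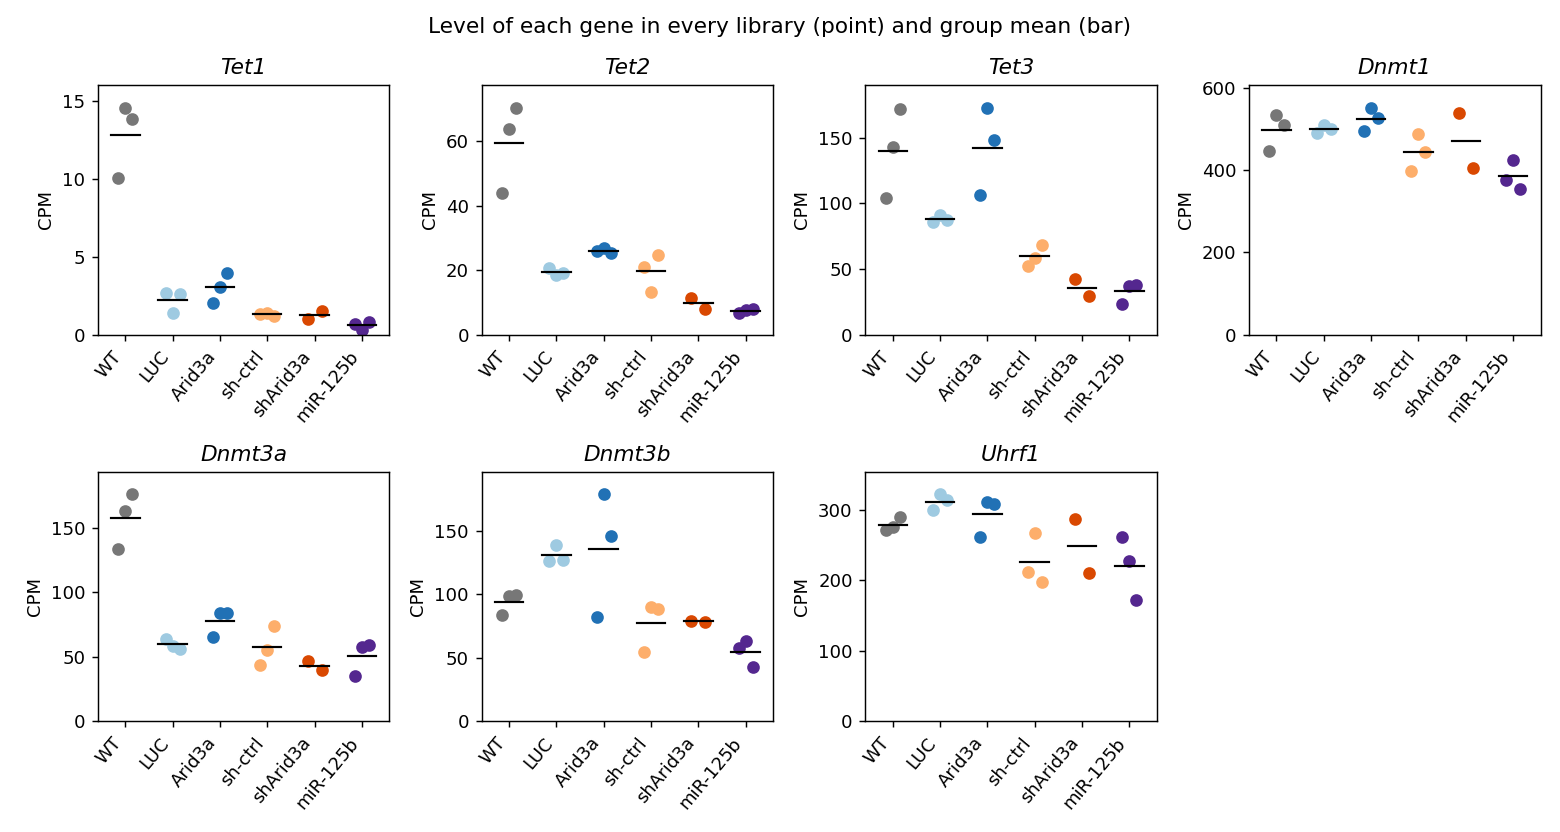
CPM of the 7 genes (y axes, each starting at 0) in each of the 17 libraries, by group (x axis), with points for libraries and horizontal bars for group means. Tet1, Tet2 and Dnmt3a are highest in WT without overlap with any other group, a separation that was not counted over all genes. The 3 miR-125b libraries are the lowest group for Tet2 at 6.60 to 8.11 CPM.

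Tet2 (ENSMUSG00000040943; chromosome 3, 133463679 to 133545139, minus strand) encodes the TET enzyme most tied to blood cell production. It was at 44.0, 63.6 and 70.4 CPM in the 3 WT libraries. In LUC it was at 20.8, 18.6 and 18.98 CPM, and in the libraries labelled Arid3a at 25.8, 26.9 and 25.2 CPM. The sh-ctrl libraries were at 21.1, 13.2 and 24.7 CPM, the shArid3a libraries at 11.4 and 7.99 CPM, and the miR-125b libraries at 6.60, 7.69 and 8.11 CPM. Every WT library was above every Gata1s library. Each of the 5 shArid3a and miR-125b libraries was below the lowest of the 9 others of the Gata1s cells. How many of all genes show that order was not counted, so it is not read as particular to Tet2. The shArid3a and miR-125b values overlapped, as did those of LUC and sh-ctrl.

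Tet3 (ENSMUSG00000034832; chromosome 6, 83362373 to 83459084, minus strand) encodes the TET enzyme that acts in the zygote and, with TET2, in blood cells. Its levels were 104, 143 and 172 CPM in WT, 86.0, 90.8 and 87.4 CPM in LUC, and 106, 173 and 148 CPM in the libraries labelled Arid3a. They were 52.1, 58.6 and 68.5 CPM in sh-ctrl, 42.4 and 29.1 CPM in shArid3a, and 23.1, 37.4 and 38.2 CPM in miR-125b. The libraries labelled Arid3a reached the WT range, while those with shArid3a or miR-125b lay below every sh-ctrl library. Taken separately, that order held for 21.7% of all genes with shArid3a and for 22.3% with miR-125b.

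Tet1 (ENSMUSG00000047146; chromosome 10, 62804570 to 62899118, minus strand), the TET gene best known from embryonic stem cells, was the least abundant. It was at 10.1, 14.6 and 13.8 CPM in WT. The highest Gata1s library, 1 of those labelled Arid3a, was at 3.95 CPM. The sh-ctrl libraries were at 1.30, 1.38 and 1.22 CPM and the miR-125b libraries at 0.713, 0.304 and 0.808 CPM, which rest on 42 to 45 and on 10 to 29 counts. At such counts, sampling error alone is a large part of each value.

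Among the methyltransferases, Dnmt3a (ENSMUSG00000020661; chromosome 12, 3806007 to 3914443, plus strand) separated WT from the Gata1s cells. It was at 134, 164 and 176 CPM in WT. The libraries labelled Arid3a were at 65.1, 83.7 and 83.7 CPM and LUC at 64.1, 58.7 and 56.2 CPM. The remaining groups overlapped, with 43.9 to 74.1 CPM in sh-ctrl, 40.1 to 46.5 CPM in shArid3a and 35.5 to 59.5 CPM in miR-125b.

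Dnmt3b (ENSMUSG00000027478; chromosome 2, 153649450 to 153687730, plus strand), the other de novo enzyme, had another order of groups. It was at 126, 138 and 127 CPM in LUC, above the 83.4, 98.6 and 99.2 CPM of WT. In the libraries labelled Arid3a it ranged most, at 81.9, 179 and 146 CPM. It was at 54.5, 90.4 and 88.4 CPM in sh-ctrl, 79.4 and 78.2 CPM in shArid3a, and 57.7, 63.6 and 42.7 CPM in miR-125b.

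Dnmt1 (ENSMUSG00000004099; chromosome 9, 20907206 to 20959888, minus strand) and Uhrf1 (ENSMUSG00000001228; chromosome 17, 56303321 to 56323486, plus strand), the maintenance pair, varied least. Group means of Dnmt1 lay between 385 ± 36.1 CPM in miR-125b (SD, n = 3) and 524 ± 28.7 CPM in the libraries labelled Arid3a (SD, n = 3). Those of Uhrf1 lay between 221 ± 45.1 CPM in miR-125b (SD, n = 3) and 312 ± 11.05 CPM in LUC (SD, n = 3). For both genes, every pair of neighbours in the order of groups overlapped. Under other scalings of the libraries a group mean moved by at most 1.18 times, which reordered neighbouring groups for Tet2, Tet3, Dnmt1, Dnmt3b and Uhrf1 under at least 1 scaling, but not for Tet1 or Dnmt3a.

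Per kilobase, Dnmt1 was the most abundant of the 7 genes in every group, followed by Uhrf1 and Dnmt3b, and Tet2 and Tet1 were the lowest. In WT the levels were 78.8 ± 7.14 CPM per kilobase for Dnmt1, 65.4 ± 2.25 for Uhrf1, 18.4 ± 1.76 for Dnmt3b, 9.48 ± 1.31 for Dnmt3a, 8.37 ± 2.02 for Tet3, 3.52 ± 0.814 for Tet2 and 0.871 ± 0.163 for Tet1 (SD, n = 3). Dnmt3a and Tet3 exchanged the fourth and the fifth place between groups.

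Within the TET family, Tet3 made up 65.5 ± 1.25% of the summed CPM per kilobase in WT (SD, n = 3) and 74.2 ± 5.26% (sh-ctrl) to 82.6 ± 3.06% (libraries labelled Arid3a) in the Gata1s groups. Tet2 made up 27.6 ± 0.629% in WT (SD, n = 3), 23.9 ± 5.43% in sh-ctrl (SD, n = 3) and 18.4 ± 2.64% in miR-125b (SD, n = 3), and the ranges of the last 2 groups, 17.8 to 28.1% and 16.8 to 21.5%, overlapped. Tet1 made up 6.90% in WT and 1.79 to 3.26% in the Gata1s groups. Within the DNMT family, the share of Dnmt1 ran from 73.1% in LUC to 81.7% in miR-125b. The share of Dnmt3a was 8.87% in WT against 2.82 to 4.12% in the Gata1s groups, and that of Dnmt3b was 14.2 to 23.6%. Dnmt3a (16642 bases) is longer than Dnmt1 (6304) and Dnmt3b (5106). Division by length does not remove a trend with gene length that differs between libraries, as described below. The part of such a trend in the shares was not tested.

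**Figure D2:**
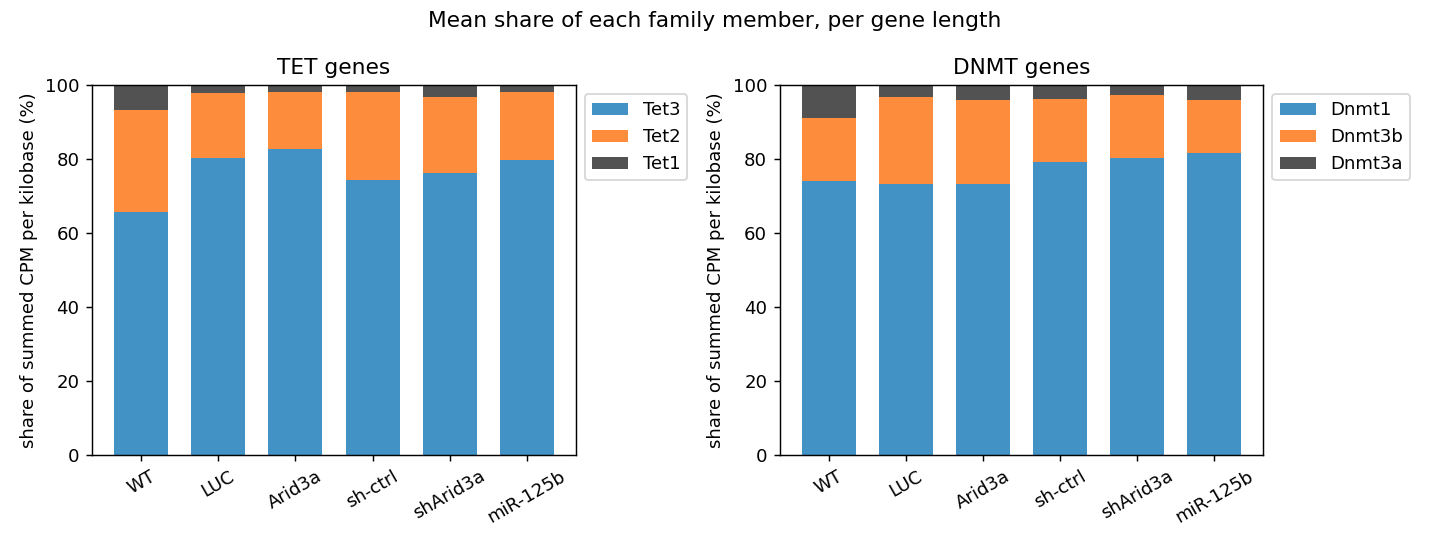
Mean share (y axis, percent) of each gene in the summed CPM per kilobase of the TET genes (left) and DNMT genes (right) in the 6 groups. Tet3 and Dnmt1 hold the largest share of their family in every group, and Tet1 and Dnmt3a have their largest share in WT (6.90% and 8.87%).

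What the microRNA changes in Gata1s cells was read from miR-125b against sh-ctrl. Tet2 was 2.65-fold lower, with 7.47 ± 0.782 CPM in miR-125b against 19.6 ± 5.89 CPM in sh-ctrl (SD, n = 3 each). Its log2 fold change was −1.41 (SE 0.27, 95% interval −2.01 to −0.81, edgeR adjusted p = 0.00937). Tet3 was 1.83-fold lower, with 32.9 ± 8.51 against 59.7 ± 8.25 CPM (SD, n = 3 each) and a log2 fold change of −0.87 (SE 0.22, 95% interval −1.37 to −0.38, edgeR adjusted p = 0.0221). Both changes exceeded the spread between libraries, and for both genes all 3 miR-125b libraries lay below all 3 sh-ctrl libraries.

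These 2 of 7 genes were the only ones called, at a Benjamini-Hochberg adjusted p under 0.05 over all genes. The background was wide: 24.4% of the 14004 genes tested were called, and 12.2% were called lower. All libraries lay below those of sh-ctrl for 3 of the 7 genes (Tet1, Tet2, Tet3) and for 22.3% of all genes. Of the 3414 genes called, 49.8% were higher; with library totals in place of TMM, where the median log2 fold change of all genes was −0.22 and not −0.03, 26.6% of 3342 were.

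The call on Tet2 was kept in all 16 alternative fits, with adjusted p from 5.98e-06 to 0.0473. The call on Tet3 was lost without sh-ctrl replicate 3 (log2 fold change −0.78, edgeR adjusted p = 0.0855), a library with the highest Tet2 and Tet3 of its group, and without miR-125b replicate 1 (−0.67, 0.0506), the library with the lowest Tet2 and Tet3. Without these libraries 734 and 1766 genes in all were called, and without miR-125b replicate 2 or 3, 2229 and 2032.

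Tet1 had the log2 fold change −1.10 (SE 0.49, 95% interval −2.20 to −0.01, edgeR adjusted p = 0.123). That of Dnmt3b was −0.52 (SE 0.21, 95% interval −0.98 to −0.07, edgeR adjusted p = 0.0845), and it was past the threshold in 3 of 16 alternative fits: library totals alone, no low-count filter, and without sh-ctrl replicate 1 (0.0229), the library with the lowest Dnmt3b of its group. Dnmt1 (−0.22, 95% interval −0.56 to 0.13), Dnmt3a (−0.20, −0.71 to 0.32) and Uhrf1 (−0.05, −0.48 to 0.38) did not pass. Whether their values differ from those of Tet2 or Tet3 was not tested.

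What a loss of Arid3a RNA changes was read from shArid3a against sh-ctrl. Tet2 was at 9.69 ± 2.39 CPM (SD, n = 2) against 19.6 ± 5.89 CPM (SD, n = 3), with a log2 fold change of −1.03 (SE 0.31, 95% interval −1.71 to −0.35) that did not pass (edgeR adjusted p = 0.107). Tet3 had the log2 fold change −0.75 (SE 0.25, 95% interval −1.31 to −0.19, edgeR adjusted p = 0.123). For both genes, both shArid3a libraries lay below all 3 sh-ctrl libraries, which held for 21.7% of all genes.

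In that comparison 0 of the 7 genes were called, against 0.0857% of all genes (12 of 14004). An unadjusted edgeR p under 0.05 was reached by 2 of the 7 and by 25.8% of all genes, so the 7 lay near the background. DESeq2 called Tet2 and Tet3 (adjusted p of Tet2 0.0139), and so did edgeR with no low-count filter (0.0352). Without sh-ctrl replicate 3 the value of Tet2 was −0.86 (0.303), and without shArid3a replicate 3 it was −0.77 (0.562). The other values were −0.07 for Tet1 (95% interval −1.26 to 1.13), −0.43 for Dnmt3a (−1.01 to 0.15), 0.08 for Dnmt1 (−0.30 to 0.46), 0.00 for Dnmt3b (−0.50 to 0.51) and 0.13 for Uhrf1 (−0.35 to 0.61). The last 3 were negative when library totals replaced TMM.

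The shArid3a and miR-125b comparisons share the 3 sh-ctrl libraries, so their values are only set side by side. Setting miR-125b directly against shArid3a does not use those controls. There 0 of the 7 genes were called (and 1.35% of all genes were), and 0 of the 7 were called by DESeq2. An unadjusted edgeR p under 0.05 was reached by 1 of the 7 and by 14.5% of all genes. The log2 fold change of Tet2 was −0.38 (SE 0.30, 95% interval −1.04 to 0.28, edgeR adjusted p = 0.617) and that of Tet3 −0.12 (SE 0.25, 95% interval −0.68 to 0.43). Both intervals hold 0, and that of Tet2 also holds a fall by up to 1.04 on the log2 scale. Dnmt3b was at −0.53 (95% interval −1.03 to −0.03, edgeR adjusted p = 0.317) and Tet1 at −1.04 (95% interval −2.23 to 0.16, 0.416). For these 2 of the 7 genes all 3 miR-125b libraries lay below both shArid3a libraries, which held for 15.6% of all genes.

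The libraries labelled Arid3a were compared with LUC to ask what the Arid3a transgene changes, although Arid3a RNA itself was not raised beyond the spread. A transgene that lacks the counted sequence and a library that does not match its label cannot be told apart here, so the values compare libraries by label and not a measured rise of Arid3a. Tet2 was at 26.0 ± 0.873 CPM against 19.5 ± 1.16 CPM (SD, n = 3 each), with a log2 fold change of 0.41 (SE 0.09, 95% interval 0.20 to 0.62, edgeR adjusted p = 0.0895). Tet3 had the log2 fold change 0.69 (SE 0.16, 95% interval 0.32 to 1.06, edgeR adjusted p = 0.0941) and Dnmt3a 0.37 (SE 0.11, 95% interval 0.12 to 0.63, edgeR adjusted p = 0.121). All 3 of these genes were higher in every library labelled Arid3a than in every LUC library, which held for 12.8% of all genes.

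None passed the threshold: 0 of the 7 genes and 0% of all 13495 genes were called by edgeR, while 3 of the 7 and 21.4% of all (2885) had an unadjusted p under 0.05. DESeq2 called 1198 genes, with Tet2, Tet3 and Dnmt3a among them. Without replicate 1 of the libraries labelled Arid3a, which had the lowest Tet1, Tet3, Dnmt3a and Dnmt3b of its group, edgeR called 3198 genes, and Tet2 (0.42, adjusted p = 0.013), Tet3 (0.86, 0.000436), Dnmt3a (0.49, 0.00215) and Dnmt3b (0.31, 0.0328) were among them. Tet1 (0.45, 95% interval −0.40 to 1.29), Dnmt1 (0.07, −0.07 to 0.21), Dnmt3b (0.05, −0.53 to 0.62) and Uhrf1 (−0.09, −0.27 to 0.09) did not pass with all libraries.

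Replicate 1 of the libraries labelled Arid3a also stood apart in cell type markers. Its mast cell and basophil markers summed to 1102 CPM, against 348 and 421 CPM in the other libraries of its group and 379 to 503 CPM in LUC. Its megakaryocyte and platelet markers summed to 4538 CPM (2889 and 3049 in the others, 2931 to 3360 in LUC), and its erythroid markers to 122 CPM (294 and 255 in the others, 126 to 172 in LUC). Stem and progenitor markers were at 387 CPM in it, 469 and 477 in the others and 382 to 406 in LUC. LUC replicate 3 stood apart in another way, with neutrophil and monocyte markers at a summed 126 CPM. These markers were at 5.21 and 5.90 CPM in the other LUC libraries and at 5.89 to 10.3 CPM in those labelled Arid3a. Of the markers tested, edgeR called 0 in this comparison and 0 in shArid3a against sh-ctrl. The part of these markers in the values was not tested.

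**Figure D3:**
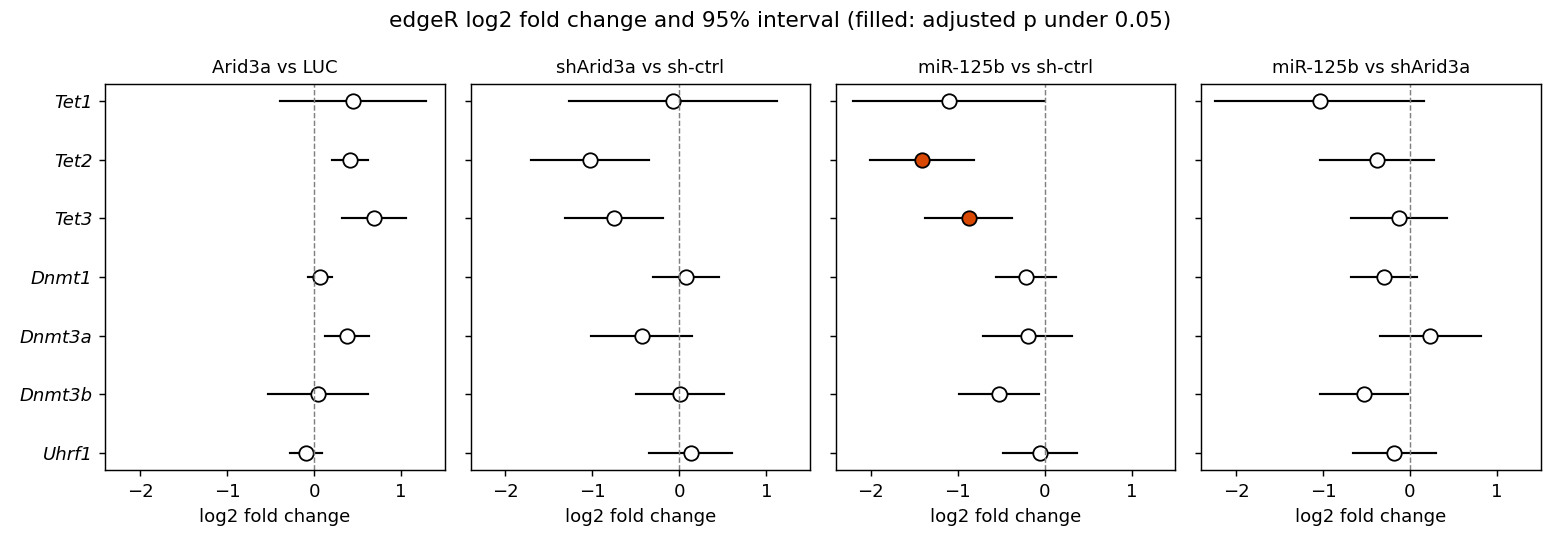
Log2 fold change (x axis) with its 95% interval for the 7 genes (y axis) in the 4 comparisons, with filled points for edgeR adjusted p under 0.05. Filled points appear for Tet2 (−1.41) and Tet3 (−0.87) in miR-125b against sh-ctrl. The intervals are not adjusted. Others to 1 side of 0 are those of Tet2, Tet3 and Dnmt3a in Arid3a against LUC and of Tet2 and Tet3 in shArid3a against sh-ctrl. So are those of Tet1 and Dnmt3b in miR-125b against sh-ctrl and of Dnmt3b in miR-125b against shArid3a. An unadjusted edgeR p under 0.05 was reached by 14.5 to 39.8% of all genes.

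Gene length moved with these values. Tet1, Tet2, Tet3 and Dnmt3a (14710 to 16870 bases of annotated gene length) are in the longest of 10 length classes of equal size among the genes tested, which starts at 8471 bases in the table of the hairpin and microRNA groups, and there 1.09% of those genes are longer than Tet2. In miR-125b against sh-ctrl the median log2 fold change was 0.36 in the shortest class and −0.41 in the longest, and in shArid3a against sh-ctrl it was 0.38 and −0.41. It went the other way in Arid3a against LUC, from −0.14 to 0.26. Of the longest class, 29.8% of genes were called lower with miR-125b, against 3.79% of the shortest. The part of gene length in the differences of the 4 long genes was not tested, but values with the length trend taken out were computed, an alternative chosen after the data had been seen.

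With the trend over length removed from each library, Tet2 was still called lower with miR-125b (log2 fold change −0.89, edgeR adjusted p = 0.0243), and Tet3 was not (−0.39, 0.0965). The value of Tet1 was −0.62 and that of Dnmt3a turned to 0.30 (0.247). In shArid3a against sh-ctrl, Tet2 was at −0.55 (0.238) and Tet3 at −0.28 (0.357). In the libraries labelled Arid3a against LUC, Tet2 was at 0.09, Tet3 at 0.34 and Dnmt3a at 0.04. This fit leaves out genes for which no length was given.

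**Figure D4:**
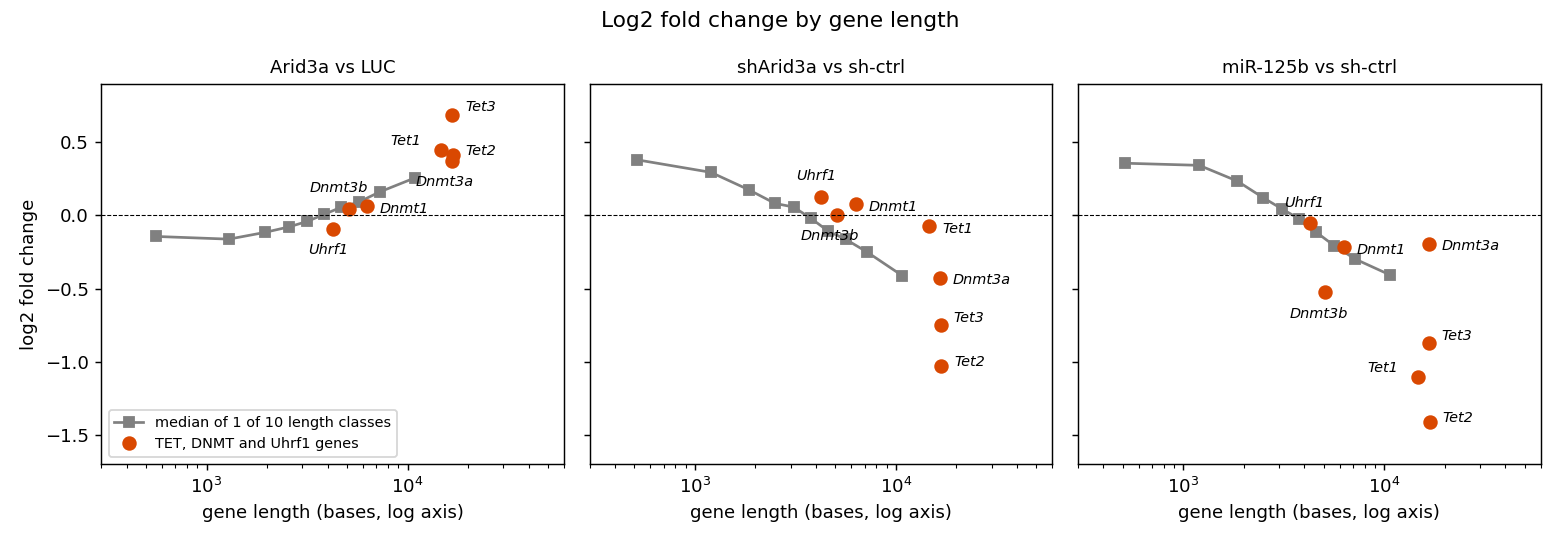
Log2 fold change (y axis) against gene length in bases (x axis, log scale) for the 7 genes (circles) and the median of each of 10 length classes of the genes tested (squares), in 3 comparisons. The medians fall from 0.36 to −0.41 in miR-125b against sh-ctrl, and Tet2, Tet3 and Tet1 lie below the median of the longest class there while Dnmt3a lies above it.

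Cell type markers were read in miR-125b against sh-ctrl too, where 24.4% of all genes tested were called. Of the megakaryocyte and platelet markers tested, 58.3% were called. The shares of erythroid (30%), mast cell and basophil (18.2%) and stem and progenitor markers (20%) lay near that of all genes. With miR-125b, 6 of 12 megakaryocyte and platelet markers were called lower and 1 higher, with a summed level of 3302 to 4209 CPM against 3532 to 5338 in sh-ctrl. Among neutrophil and monocyte markers, 2 of 5 tested were higher and 0 lower, at a summed 89.8 to 166 CPM against 52.0 to 108 in sh-ctrl. Mpo, the myeloperoxidase of granulocyte precursors, chosen after its values were seen, was at 46.4 ± 20.8 against 0.217 ± 0.349 CPM (SD, n = 3 each). Erythroid markers had 3 of 10 lower and a summed 195 to 237 CPM against 360 to 652. Mast cell and basophil markers had 2 of 11 higher (255 to 702 against 181 to 443 CPM), and hepatocyte markers 2 of 2 tested higher (4.41 to 6.55 against 0.866 to 1.41 CPM). In stem and progenitor markers 1 of 5 was lower (294 to 511 against 374 to 411 CPM). For macrophages (3.98 to 5.97 against 3.14 to 8.52 CPM, with 6 of 10 markers at 0 in miR-125b), lymphoid cells (1.62 to 2.74 against 1.41 to 2.04 CPM, with Cd3e and Cd8a at 0 in all 17 libraries) and endothelial or stromal cells (172 to 260 against 182 to 220 CPM, Col3a1 and Dcn at 0 in all) 0 markers were called. The part of any cell type in the TET values was not tested.

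Genes around the 7 were grouped by role. The share of each list that was called is set beside the 24.4% of all genes called with miR-125b. Calls differed with gene length, which that single share does not show. In the longest length class 29.8% were called lower and 2.86% higher, and in the shortest 3.79% and 14.8%. The part of gene length in the values of these lists, and of the cell type markers above, was not tested. Of the TET partners and enzymes of 2-oxoglutarate supply, 14 of 15 were tested, and with miR-125b 2 rose and 2 fell (28.6% called; median log2 fold change −0.03, equal to that of all genes tested). Ogt, the O-GlcNAc transferase that binds TET proteins, fell from 201 ± 58.5 to 94.3 ± 26.9 CPM (SD, n = 3 each; −1.10, SE 0.25, edgeR adjusted p = 0.015). Dcaf1, a substrate receptor of the CUL4 ubiquitin ligase that modifies TET proteins, fell by 0.59 on the log2 scale (0.0278). Idh3a, a mitochondrial enzyme that makes 2-oxoglutarate, rose by 0.50 (0.0208), and Hdac2, a histone deacetylase, by 0.45 (0.0232).

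In base excision repair, all 12 genes were tested, of which 2 rose and 2 fell (33.3% called; median −0.31). Mbd4, a glycosylase that removes thymine from G:T mismatches, fell from 19.1 ± 3.29 to 9.11 ± 3.13 CPM (SD, n = 3 each; −1.08, edgeR adjusted p = 0.0206), and Smug1, a uracil and 5-hydroxymethyluracil glycosylase, fell by 0.93 (0.0313). Apex1, the endonuclease that cuts at the abasic site, rose by 0.73 (0.0185), and Polb, the polymerase that fills the gap, by 0.54 (0.0386).

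Of the partners of DNMT and UHRF1, 16 of 19 were tested, with 2 higher and 3 lower (31.2% called; median −0.16). The histone methyltransferases Nsd1 (−0.90, edgeR adjusted p = 0.0088), which makes the H3K36 mark bound by DNMT3A, and Setd2 (−0.58, 0.0208), which trimethylates H3K36, fell. Ehmt1, a partner of the H3K9 methyltransferase G9a, fell by 0.41 (0.0469). The corepressor Trim28 (0.61, 0.0294) and Pcna, the sliding clamp that DNMT1 binds (0.57, 0.0351), rose.

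The list of methyl-CpG readers and other genes of the methyl-CpG binding domain family had all 9 genes tested. Of these, 1 was higher and 4 were lower (55.6% called, median −0.40). Not every gene of that family binds methylated DNA, and binding was not tested here. Zbtb33, or Kaiso, fell from 27.6 ± 4.84 to 13.3 ± 2.06 CPM (SD, n = 3 each; −1.07, edgeR adjusted p = 0.0103). Mbd6, of the methyl-CpG binding domain family, also fell (−0.80, 0.0138). Mbd3, a subunit of the NuRD complex, rose from 206 ± 24.7 to 342 ± 29.1 CPM (SD, n = 3 each; 0.71, 0.0107). The call on Zbtb4 rests on a low level with wide spread (2.09 ± 1.83 CPM in sh-ctrl, SD, n = 3; 0.161 ± 0.233 CPM in miR-125b, SD, n = 3). Ehmt1 and Zbtb4 are beyond the 4 genes a list that the naming rule allows, and their values had been seen when they were chosen.

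Methyl donor supply had 13 of 13 genes tested, with 3 higher and 0 lower (23.1% called; median 0.09), a share near that of all genes. Among them were Ahcy, which clears S-adenosylhomocysteine (0.63, edgeR adjusted p = 0.0182), and Dmap1, a DNMT1-associated protein placed in this list (0.43, 0.0288). Of 20 genes of S phase and proliferation, 3 rose and 1 fell (20% called; median 0.34), also near that of all genes. Gins2, part of the replicative helicase, rose by 1.09 (0.00712), Tyms by 0.67 (0.0245) and Mcm6 by 0.53 (0.0418), whereas Mki67, which codes for a long proliferation antigen, fell by 0.86 (0.00909).

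**Figure D5:**
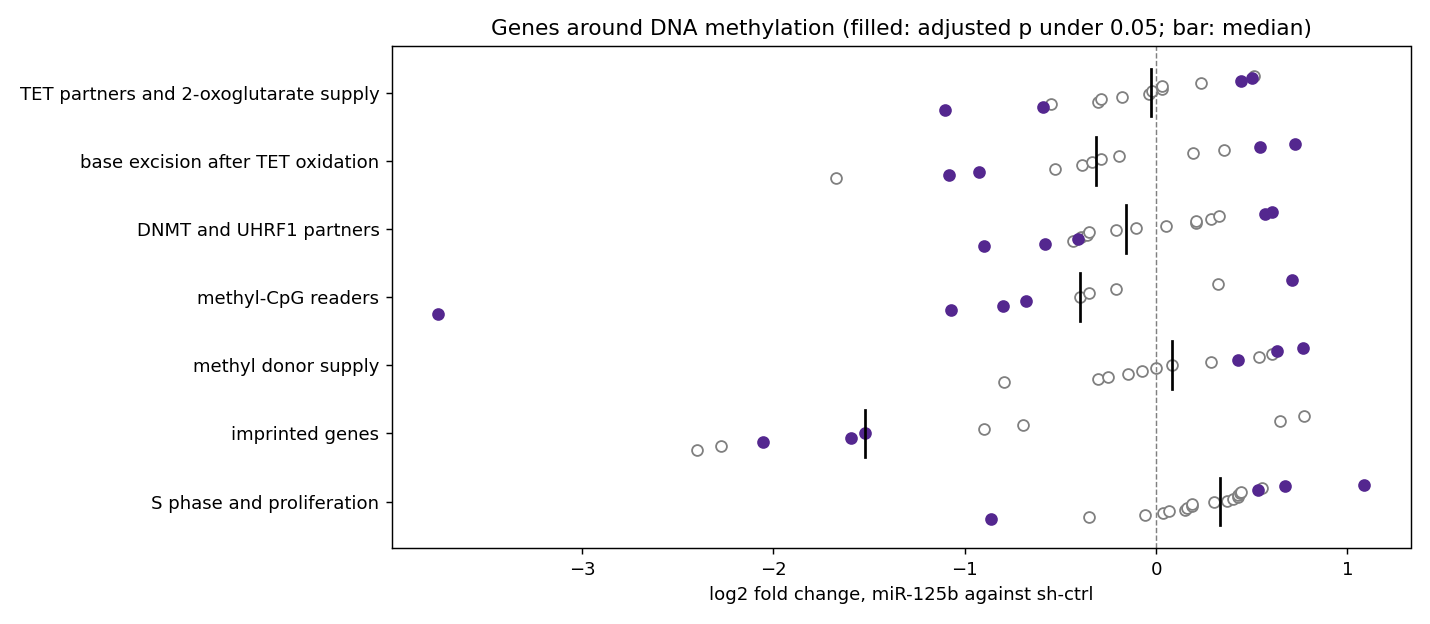
Log2 fold change in miR-125b against sh-ctrl (x axis) of each tested gene in 7 lists (y axis), with filled points for edgeR adjusted p under 0.05 and a bar at each list's median. The list medians run from −1.52 for imprinted genes to 0.34 for S phase, and filled points lie on both sides of 0 in 5 of the 7 lists.

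Imprinted genes and germline genes are classes whose silencing depends on DNA methylation, so their RNA was read as well. Of 14 germline genes 0 passed the low-count filter, and 6 (Mael, Asz1, Sycp1, Hormad1, Stk31 and Tex11) had 0 counts in all 17 libraries. Their summed level was at most 0.499 CPM in any Gata1s library and 0.761 to 3.95 CPM in WT. Of 18 imprinted genes 9 were tested, and with miR-125b 0 rose and 3 fell (33.3% called; median −1.52). Igf2r, the receptor that clears IGF2, fell from 40.2 ± 12.3 to 9.78 ± 0.707 CPM (SD, n = 3 each; −2.05, SE 0.28, edgeR adjusted p = 0.00431), and the growth-restraining adaptor Grb10 fell by 1.60 (0.00621). Airn, the noncoding RNA antisense to Igf2r, fell by 1.52 (0.0285). The strand setting of the counting is not given in the sources used here. Reads where Igf2r and Airn overlap can therefore not be told apart. Grb10 was also lower with miR-125b than with shArid3a (−1.56, 0.0286).

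In the other 2 comparisons with a control, edgeR called 0 genes of any of the 8 lists. With shArid3a the lowest adjusted p of 5 lists belonged to Hdac2 (0.46, 0.101), Apex1 (0.60, 0.116), Nsd1 (−0.72, 0.101), Nnat (−3.53, 0.108) and Gins2 (0.82, 0.101), given as log2 fold change and adjusted p. In the libraries labelled Arid3a, for the same lists, it belonged to Ogt (0.36, 0.0917), Lig3 (0.23, 0.388), Pcna (−0.35, 0.0774), Nnat (1.00, 0.122) and Tyms (−0.46, 0.0701). The median of the S phase list was 0.47 with shArid3a and −0.17 in the libraries labelled Arid3a.

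How alike the genes were across the 14 Gata1s libraries was described by Pearson's r of log2 CPM centred within each table. The libraries share groups and depth, so r has no test here. Between the 7 genes r was highest for Tet2 with Tet3 (0.82) and Tet3 with Dnmt3a (0.80), followed by Dnmt1 with Dnmt3b (0.71) and Dnmt1 with Uhrf1 (0.67), and lowest for Dnmt3a with Uhrf1 (−0.34). The 3 protein-coding genes most like each were searched over 8514 or 8515 genes. They were Rsbn1l (0.978), Gtpbp2 (0.974) and Mau2 (0.974) for Tet2, Braf (0.989), Vps13c (0.983) and Vps13a (0.982) for Tet3, and Cd47 (0.845), Tnfrsf1b (0.843) and Zfp141 (0.818) for Tet1. For Dnmt1 they were Eif4enif1 (0.946), Kif18b (0.941) and Kif20a (0.920). Dnmt3a was most like Heatr5a (0.956), Syne3 (0.946) and Pik3ca (0.944), and Dnmt3b most like Ctcf (0.918), Nup160 (0.913) and Ikzf1 (0.913). Uhrf1 was most like Mcm10 (0.892), Dazap1 (0.855) and Dtl (0.853). The trend with gene length was not removed before r was computed. The genes searched had a median length of 4164 bases. Braf (13862 bases), Rsbn1l (12676) and Vps13c (11523) are longer, whereas Kif18b (3572) and Dazap1 (2944) are shorter. The part of gene length in r was not tested.

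Annotated genes on the other strand overlap Tet2 (Gm42567), Tet3 (B230319C09Rik), Dnmt3a (Dnmt3aos) and Dnmt3b (Dnmt3bos). On the same strand, annotated genes overlap Tet1 (Gm26479 and Gm48353), Tet3 (5430434F05Rik and Mir6374) and Dnmt1 (Mir7081). Reads in all those overlaps are of uncertain origin. Uhrf1 has no overlapping gene.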

How the data were processed

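Whole-number read counts per gene were deposited by the authors without normalization. Reads had been handled with fastp, HISAT2 2.0.5 and featureCounts on mm10, per the submitters' processing notes; the strand setting and annotation are not given in the sources used here. Groups came from the labels. No shArid3a library with the number 2 was used here. Tables were joined by Ensembl identifier. Each comparison was fitted on a whole table in R 4.3.3 with edgeR 4.0.16 (filterByExpr, TMM, glmQLFit, glmQLFTest; Benjamini-Hochberg threshold 0.05), with sh-ctrl, shArid3a and miR-125b fitted together. Intervals of 95% come from standard errors derived from F. Log2 CPM used a prior count of 2. Scripts were tested on simulated data. Alternatives were DESeq2 1.42.0, other scalings, filters (at least 10 counts in every library, or none), a robust fit, a replicate block, 5 ribosomal RNA-like genes left out, each library left out, only the libraries compared, and removal of a lowess trend over gene length.

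All 7 genes were named throughout. Up to 4 called genes of each list with the lowest adjusted p were named, or the lowest where none was called, and for likeness the 3 highest r among protein-coding genes of mean log2 CPM of at least 3. The genes and the lists, written from general knowledge, were chosen with earlier results of these data known. Some genes that the rule names are not reported here.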

Additional observations from a re-analysis of the deposited data

How the results depend on the processing

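Counts of genes called depended on the fit. DESeq2 called 1198 genes in Arid3a against LUC (3 of the 7), 1323 in shArid3a against sh-ctrl (2 of the 7) and 737 in miR-125b against shArid3a. With no low-count filter the counts were 71, 1237 (2 of the 7) and 715. In shArid3a against sh-ctrl the 12 calls became 20 with library totals, 19 with at least 10 counts, 19 with the robust fit and 0 without ribosomal RNA-like genes. Leaving out 1 library gave 0 to 3198 genes (0 to 4 of the 7) in Arid3a against LUC, 2 to 11 in shArid3a against sh-ctrl (5 and 2 without sh-ctrl replicate 2 or 3, 3 and 2 without shArid3a replicate 1 or 3, where the lone library is assumed to vary like the other groups), 734 to 2872 (1 to 3 of the 7) in miR-125b against sh-ctrl and 12 to 329 in miR-125b against shArid3a (12 without shArid3a replicate 1, 329 without miR-125b replicate 1). The cause was not tested, beyond the fewer samples. With the length trend removed, 1 of the 7 was called with miR-125b.

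Some values changed sign, and no value with a changed sign passed the threshold. They were not all near 0. In the main fits against sh-ctrl, Dnmt3a was at −0.43 with shArid3a and −0.20 with miR-125b. In Arid3a against LUC, Dnmt3b was at −0.019 with the replicate block, −0.012 with the length trend removed and −0.20 to 0.31 when 1 library was left out, and Dnmt1 at −0.029 with the length trend removed. In shArid3a against sh-ctrl, library totals gave −0.11 for Dnmt1, −0.19 for Dnmt3b and −0.053 for Uhrf1. Dnmt3b there was at −0.0031 with no filter, −0.022 with at least 10 counts, −0.011 without ribosomal RNA-like genes and −0.0011 with only the libraries compared. Removing the length trend there gave 0.42 for Tet1 and 0.065 for Dnmt3a, and in miR-125b against sh-ctrl 0.017 for Dnmt1, 0.30 for Dnmt3a and 0.038 for Uhrf1. Leaving out 1 library gave −0.17 to 0.29 for Dnmt1, −0.22 to 0.11 for Dnmt3b, −0.39 to 0.20 for Tet1 and −0.13 to 0.36 for Uhrf1 in shArid3a against sh-ctrl. It gave −0.19 to 0.093 for Uhrf1 and −0.38 to 0.0096 for Dnmt3a in miR-125b against sh-ctrl, and −0.39 to 0.20 for Tet3 and −0.41 to 0.082 for Uhrf1 in miR-125b against shArid3a.

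Libraries with the same replicate number did not deviate together throughout (r −0.17 to 0.30 over 3 pairs in 1 table and −0.10 to 0.48 over 7 pairs in the other; 3 of 6 and 5 of 8 libraries correlated best with their own number). With the replicate block, 0 genes were called in Arid3a against LUC, 15 in shArid3a against sh-ctrl, 3687 in miR-125b against sh-ctrl (2 of the 7) and 255 in miR-125b against shArid3a, and no call on the 7 genes changed. Tet1 rests on 10 to 46 counts in each library with 10 days of doxycycline, which limits its precision.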
